A study of Mus musculus with 2 samples.

Results

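Proteolysis of the extracellular matrix was examined through 9 genes, the matrix metalloproteinases Mmp7, Mmp2, Mmp3 and Mmp14, the tissue inhibitors of metalloproteinases Timp1, Timp2 and Timp3, and the plasminogen activators Plat and Plau. They were taken by name from the 19320 features of 1 table of single-cell RNA values, were chosen with their levels in these data known, and are described by cell class, by barcode set and, within epithelium, by level of the EGFP reporter. The cells came from prostate tissue of R26 mTmG/hAR:Osr1-Cre/+ mice of mixed C57BL/6 and 129S1/SvImJ background, in which Osr1-Cre removes stop cassettes and so switches on both a human androgen receptor transgene (hARtg) and a membrane-bound green fluorescent protein (mGFP, counted in the EGFP row of the table). The Cre acts from the embryonic urogenital sinus on, so all descendants of a recombined cell carry the reporter, and a tissue can hold recombined and unrecombined cells side by side. Tissue with prostatic intraepithelial neoplasia (PIN) was collected at 6 months and tissue with prostate cancer (PCa) at 12 months, with 1 library each, so no replicate spread exists and no test between tissues could be made. The labels do not say which barcode ending belongs to which tissue, and cells are therefore described as barcode set 1 and barcode set 2.

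Matrix metalloproteinases (MMPs) are zinc enzymes that cut collagens, laminins, cell adhesion proteins and growth factor precursors, and are made as inactive proenzymes. TIMPs bind the active site of MMPs, and TIMP2 also helps MMP14 at the cell surface to activate pro-MMP2. Plat (tissue-type) and Plau (urokinase-type) turn plasminogen into plasmin, a broad protease that can activate several pro-MMPs. In the prostate and other glands, MMP7 (matrilysin) is known as the MMP made by the epithelium itself, whereas MMP2 and MMP3 are known as products of connective tissue cells.

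The members lie on 6 chromosomes of the mouse build GRCm38.p6 as RefSeq annotates them. Mmp7 (chr9:7692090-7699585) and Mmp3 (chr9:7445822-7455975) belong to the same gene cluster on chromosome 9, Mmp2 (chr8:92827290-92853421) and Plat (chr8:22757722-22782848) lie on chromosome 8, and Mmp14 (chr14:54431598-54442456) and Plau (chr14:20836662-20843388) on chromosome 14. The inhibitors are at chrX:20870166-20874737 (Timp1), chr11:118301061-118355411 (Timp2) and chr10:86300412-86349505 (Timp3).

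RefSeq promoter windows of 250 bases before the start site were found for 6 of the 9 members. The 4 windows printed here, 5′ to 3′ on the gene's strand, set the epithelial and the fibroblast protease of the chromosome 9 cluster beside Timp2 and Timp3, the inhibitors of epithelium, stroma and endothelium described further on. Capitals mark matches to AP-1 (TGANTCA) in the proteases and to the GC box (GGGCGG or, on the other strand, CCGCCC) in the inhibitors.
Mmp7 window (chr9:7691840-7692089, + strand): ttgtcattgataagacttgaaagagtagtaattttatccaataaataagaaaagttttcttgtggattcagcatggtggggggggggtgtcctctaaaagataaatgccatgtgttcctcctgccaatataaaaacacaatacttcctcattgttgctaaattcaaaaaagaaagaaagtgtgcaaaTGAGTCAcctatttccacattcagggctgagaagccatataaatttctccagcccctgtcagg
Mmp3 window (chr9:7445572-7445821, + strand): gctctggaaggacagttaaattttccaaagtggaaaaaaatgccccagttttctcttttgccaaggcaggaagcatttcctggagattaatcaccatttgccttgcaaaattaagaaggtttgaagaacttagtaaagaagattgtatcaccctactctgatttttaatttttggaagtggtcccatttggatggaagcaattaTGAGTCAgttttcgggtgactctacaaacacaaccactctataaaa
Timp2 window (chr11:118355412-118355661, - strand): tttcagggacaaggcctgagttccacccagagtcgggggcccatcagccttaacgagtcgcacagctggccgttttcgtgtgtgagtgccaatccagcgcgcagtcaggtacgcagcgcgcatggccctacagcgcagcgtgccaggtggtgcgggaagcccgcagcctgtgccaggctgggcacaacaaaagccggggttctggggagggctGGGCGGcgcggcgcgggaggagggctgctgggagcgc
Timp3 window (chr10:86300162-86300411, + strand): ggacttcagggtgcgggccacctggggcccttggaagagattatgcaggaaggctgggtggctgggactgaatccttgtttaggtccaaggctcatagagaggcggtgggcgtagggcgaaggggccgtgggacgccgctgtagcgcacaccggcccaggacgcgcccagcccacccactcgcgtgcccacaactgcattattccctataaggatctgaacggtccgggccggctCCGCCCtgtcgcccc
Both protease windows printed here were poor in CG pairs, with 0 in Mmp7 and 1 in Mmp3 and a GC content of 38.0% and 37.6%, against a median of 6 CG pairs over 32851 windows. Each held 1 AP-1 match, TGAGTCA, 63 to 57 bases before the start in Mmp7 and 46 to 40 bases before it in Mmp3, and AP-1 letters were found in 6.75% of all windows. The Timp2 window held 21 CG pairs at 68.0% GC, more than 83.7% of windows, and the Timp3 window 18 at 65.6% GC, more than 78.3% of windows. One GC box stood in each, in letters found in 32.74% of windows. Of the other members, the protease Mmp14 had 10 CG pairs at 55.2% GC and 2 GC boxes. The inhibitor Timp1 had 6 CG pairs at 54.4% GC and 1 GC box. Another annotated Mmp7 window had 7 CG pairs at 53.2% GC, so CG content did not divide proteases from inhibitors over all windows found. The TCF letters CTTTGNT, found in 15.98% of windows, were not in the 4 windows printed here, and 1 match was seen in that other Mmp7 window. These matches are letters in a window and not measured binding.

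Set 1 held 6332 cells and 134850345 UMIs (unique molecular identifiers, each standing for 1 captured RNA molecule), and set 2 held 9410 cells and 187280119 UMIs, with 67 barcodes present in both. After removal of likely doublets, 6182 cells of set 1 and 9227 cells of set 2 fell into 17 clusters, which were grouped by fixed markers into basal-like, luminal-like, proximal luminal-like, fibroblast-like, smooth muscle-like, endothelium-like, macrophage-like and leukocyte-like classes. All 9 luminal markers were detected in at least 25% of cells in clusters 5 and 9, 8 in cluster 3, 6 in cluster 6 and 5 in cluster 0. A cluster led by seminal vesicle secretory genes (Svs-led cluster) and a cluster led by Krt6a and Clu (Krt6a-Clu cluster) were kept apart. The seminal vesicle genes of the Svs-led cluster were a property of its set 2 cells, with 5 of 5 markers at 10 CPM or more and a sum of 7037 CPM, against 0 of 5 and 7.46 CPM in its set 1 cells. Luminal-like cells of set 1 were mostly in clusters 5 and 9 and those of set 2 in clusters 0, 3 and 6, so a luminal comparison between sets also compares different clusters. Levels are given as CPM (counts per 1e6, here the UMIs of a gene over all UMIs of the summed cells) with 95% Poisson intervals, and ratios with exact 95% binomial intervals. These intervals cover counting error only and none covers differences between animals. Sums under 50 cells were left out, which removed smooth muscle-like (4 cells) and endothelium-like (43 cells) of set 1 and leukocyte-like of set 2 (45 cells).

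**Figure D1:**
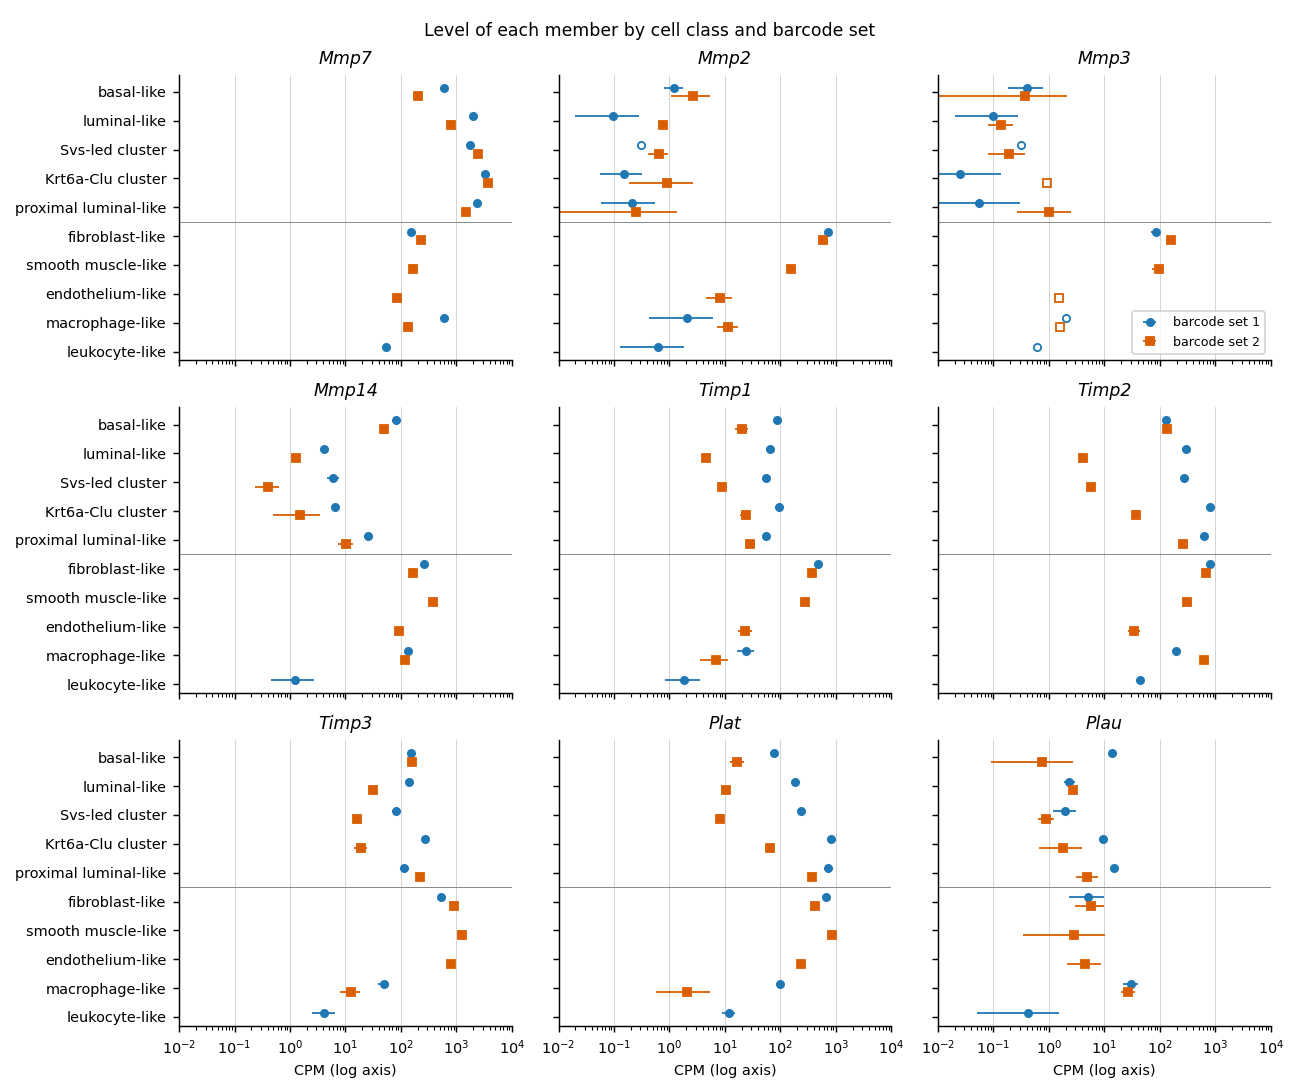
Level of each of the 9 genes in CPM (x axis, log scale) by cell class (y axis), with barcode sets 1 and 2 as separate points and 95% Poisson intervals as bars. Open points stand at the floor of 3 UMIs where a sum held no UMI. Mmp7 is highest in the Krt6a-Clu cluster, Mmp2 and Mmp3 stand out in fibroblast-like cells, and Timp2 and Plat separate the sets in luminal-like cells.

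Mmp7, the epithelial matrilysin, was the member with the most UMIs, 503506 in all. Its levels were 3288 CPM in set 1 and 3762 CPM in set 2 in the Krt6a-Clu cluster, 2378 and 1514 CPM in proximal luminal-like cells, 1998 and 783 CPM in luminal-like cells, and 1761 and 2409 CPM in the Svs-led cluster. Basal-like cells had 608 and 202 CPM. Thus all epithelial sums except the basal-like ones stood above every stromal and immune sum in both sets. Leukocyte-like cells had 53.5 CPM, and after each cell was thinned to 3000 UMIs 12.9% of them still carried an Mmp7 UMI. That share was 12.4% in fibroblast-like cells of set 1, and in set 2 19.7% in fibroblast-like, 18.4% in endothelium-like and 16.1% in macrophage-like cells, against 92.8% and 91.7% in the Krt6a-Clu cluster. The median depth before thinning was 3634 UMIs in leukocyte-like cells and 28694 and 17013 UMIs in the Krt6a-Clu cluster of the sets. The origin of Mmp7 UMIs in stromal and immune cells was not tested. Their shares serve as a level for comparison, with the limit that set 2 had too few leukocyte-like cells for a share of its own. The top 10% of cells by Mmp7 held 90.7% and 84.9% of these UMIs in fibroblast-like cells of the sets and 65.8% in leukocyte-like cells of set 1. The 596 CPM of macrophage-like cells in set 1 came with 3140 CPM of summed luminal markers in the same cells, and 95.6% of these Mmp7 UMIs lay in the top 10% of cells by Mmp7. This value is not read as a level of macrophages, and its source was not tested.

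Within the basal-like class, Mmp7 was uneven from cell to cell. The 10% of cells with the most Mmp7 held 74.3% of the basal-like Mmp7 UMIs in set 1 and 69.6% in set 2, and the thinned share of cells with a UMI was 35.8% and 27.3%. In luminal-like cells the same 10% held 37.4% in set 1, with 82.5% and 69.3% of thinned cells carrying a UMI.

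Mmp2 (gelatinase A) and Mmp3 (stromelysin 1) were almost restricted to connective tissue cells. Mmp2 was at 716 CPM in set 1 and 587 CPM in set 2 in fibroblast-like cells and at 158 CPM in smooth muscle-like cells, and no epithelial sum exceeded 2.61 CPM. Fibroblast-like cells held 96.4% and 81.6% of all Mmp2 UMIs while making up 1.36% and 1.17% of all UMIs. Mmp3 stood at 83.4 and 156 CPM in fibroblast-like cells, which held 91.4% and 77.4% of its UMIs. Few of those cells carried it, since 17 of 198 cells in set 1 and 44 of 360 in set 2 had an Mmp3 UMI, and the 10% of cells richest in it held 100% and 97.6% of its UMIs. The 94.5 CPM of Mmp3 in smooth muscle-like cells came from 67 UMIs that were all in 1 of 88 cells (1.14%), and this value is not read as a level of that class. Every other sum of Mmp3 lay under 1 CPM, and 6 sums had no Mmp3 UMI. The upper limits of their 95% Poisson intervals were 0.382 to 2.53 CPM. The smooth muscle-like cluster was led by Rgs5 and Acta2 but also by collagen genes.

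Mmp14, the membrane-anchored activator of pro-MMP2, was spread more widely. It was at 375 CPM in smooth muscle-like cells, 255 and 168 CPM in fibroblast-like cells, 137 and 121 CPM in macrophage-like cells and 90.6 CPM in endothelium-like cells. Among epithelial classes it was highest in basal-like cells, with 82.6 CPM in set 1 and 49.1 CPM in set 2 in basal-like cells, 25.4 and 10.1 CPM in proximal luminal-like cells and 4.09 and 1.31 CPM in luminal-like cells. Basal-like cells of set 1 held 53.5% of that set's Mmp14 UMIs with 17.1% of its UMIs in all. Intervals of endothelium-like and basal-like cells of set 1 overlapped, as did those of fibroblast-like cells of set 2 and macrophage-like cells of set 1.

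The inhibitors differed from each other in where they were found. Timp1 was at 480 and 367 CPM in fibroblast-like and 274 CPM in smooth muscle-like cells, and its epithelial levels were 53.9 to 92.9 CPM in set 1 and 4.47 to 28.9 CPM in set 2. Timp3, which binds to the matrix itself, was at 1246 CPM in smooth muscle-like, 801 CPM in endothelium-like and 526 and 890 CPM in fibroblast-like cells. Timp2 was shared between stroma, macrophages and epithelium: fibroblast-like cells had 801 and 666 CPM, macrophage-like cells 197 and 616 CPM, the Krt6a-Clu cluster 799 and 37.5 CPM, and proximal luminal-like cells 619 and 265 CPM. Timp2 of fibroblast-like cells and of the Krt6a-Clu cluster in set 1 did not differ beyond their intervals. Leukocyte-like cells had 43.8 CPM of Timp2 and 4.12 CPM of Timp3.

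Of the plasminogen activators, Plat was found in epithelium and stroma and Plau at low levels throughout. Plat was at 865 CPM in smooth muscle-like cells, 667 and 428 CPM in fibroblast-like cells, 231 CPM in endothelium-like cells, 802 and 63.8 CPM in the Krt6a-Clu cluster and 711 and 369 CPM in proximal luminal-like cells. The Krt6a-Clu cluster of set 1 held 57.0% of that set's Plat UMIs, 53.2% of its Timp2 UMIs and 48.8% of its Mmp7 UMIs with 30.8% of its UMIs in all. Plau had its highest levels in macrophage-like cells, 29.5 and 27.0 CPM, which overlapped each other, followed by 15.1 CPM in proximal luminal-like and 13.4 CPM in basal-like cells of set 1. No other sum of Plau reached 10 CPM, so that Plau was below the limit of 20 CPM used in most comparisons.

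Because the reporter marks recombined cells, the members were next compared between EGFP-high cells (20 or more EGFP UMIs per 10000) and EGFP-low cells (under 5) of the same class and set. A gene was counted as higher or lower when it was past 2-fold with its interval off 0, among features at 20 CPM or more on either side. A gene that reached 20 CPM on 1 side only could be called in 1 direction alone, which its entry fixed. EGFP itself set these groups, and hARtg, read from the row named ARQ, was 755 CPM in EGFP-high and 112 CPM in EGFP-low basal-like cells of set 1.

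**Figure D2:**
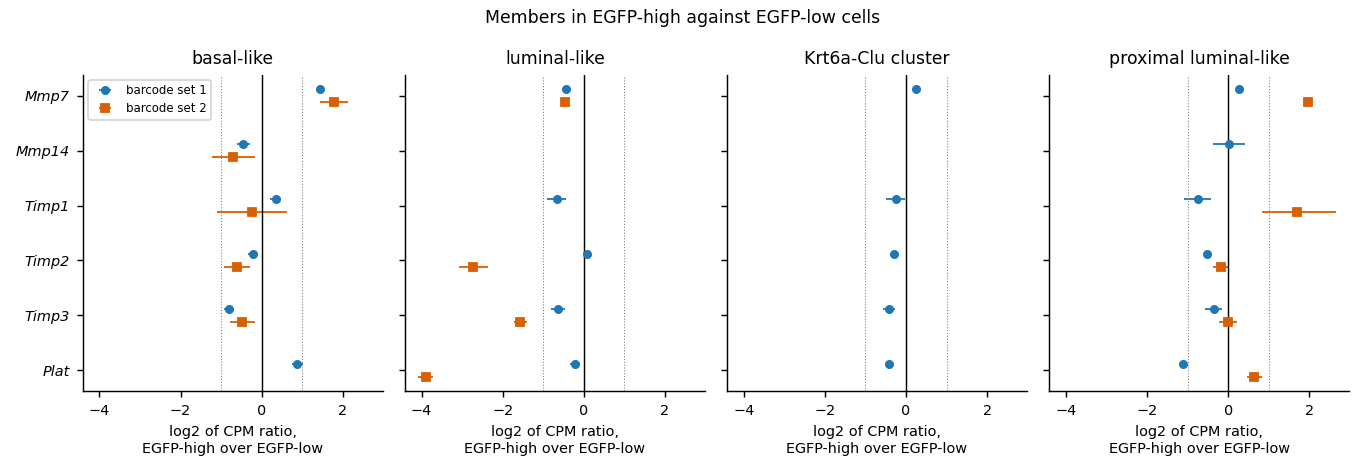
Log2 ratio of CPM in EGFP-high over EGFP-low cells (x axis) for the members tested (y axis) in each epithelial class and set, with 95% binomial intervals and dotted lines at 2-fold. Mmp7 lies past 2-fold to the right in basal-like cells of both sets and in proximal luminal-like cells of set 2, and Timp2, Timp3 and Plat lie to the left in luminal-like cells of set 2.

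In basal-like cells, Mmp7 was higher where the reporter was high, in both sets. In set 1 it was 1017 CPM in 439 EGFP-high and 378 CPM in 1200 EGFP-low cells, a log2 ratio of 1.43 (1.38 to 1.48), and in set 2 it was 303 CPM in 165 and 88.1 CPM in 135 cells, a log2 ratio of 1.78 (1.44 to 2.14). Mmp7 was the 1 member of 6 tested that was called higher in set 1, where 2.35% of all features were, and the 1 of 5 in set 2, where 2.53% were. No member was called lower, against 2.49% and 1.3% of features. The thinned share of cells with an Mmp7 UMI was 61.9% against 24.7% in set 1 and 32.7% against 20.5% in set 2. Thus the EGFP-low cells of set 2 had about the Mmp7 share of its endothelium-like cells (18.4%). Both groups of set 1 were above the 12.9% of leukocyte-like cells. Fibroblast-like cells of set 2 had 228 CPM of Mmp7, against 303 CPM in EGFP-high basal-like cells. Those fibroblast-like cells also had 2704 CPM of EGFP, and the part of transcripts from other cells in the set 2 ratio was not tested.

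The step in set 1 came at a low reporter level. Mmp7 was 382 CPM below 1 EGFP UMI per 10000, 351 CPM from 1 to 5, 1101 CPM from 5 to 20, 1100 CPM from 20 to 50 and 978 CPM from 50 on. The range from 5 to 20 held 63 cells, and its interval does not cover the unevenness of Mmp7 from cell to cell. In set 2, basal-like cells had 160, 71.4 and 108 CPM in the ranges below 20 and 322 CPM from 50 on, the range between holding too few cells. The other members had smaller ratios. In set 1 Plat was 110 against 59.6 CPM (log2 ratio 0.88), Timp3 102 against 179 CPM (-0.81), Mmp14 66.3 against 90.8 CPM (-0.45), Timp1 101 against 79.6 CPM (0.35) and Timp2 116 against 134 CPM (-0.21). Mmp14, Timp2 and Timp3 were below the EGFP-low value in both sets but within 2-fold, with log2 ratios of -0.69, -0.61 and -0.48 in set 2. In the same basal-like cells the luminal markers summed to 4401 CPM at high and 5111 CPM at low EGFP in set 1, and to 6626 against 5676 CPM in set 2. The basal markers summed to 9299 against 16700 CPM in set 1 and to 9350 against 10971 CPM in set 2, and their part in the Mmp7 ratio was not tested. The basal-like cells also split by reporter level when clustered without integration. A Krt14-led cluster then had 1088 CPM of EGFP and an Lgals7-led cluster 5522 CPM, with the sets pooled. The part of such unlike basal-like cells in the Mmp7 ratio was likewise not tested.

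**Figure D3:**
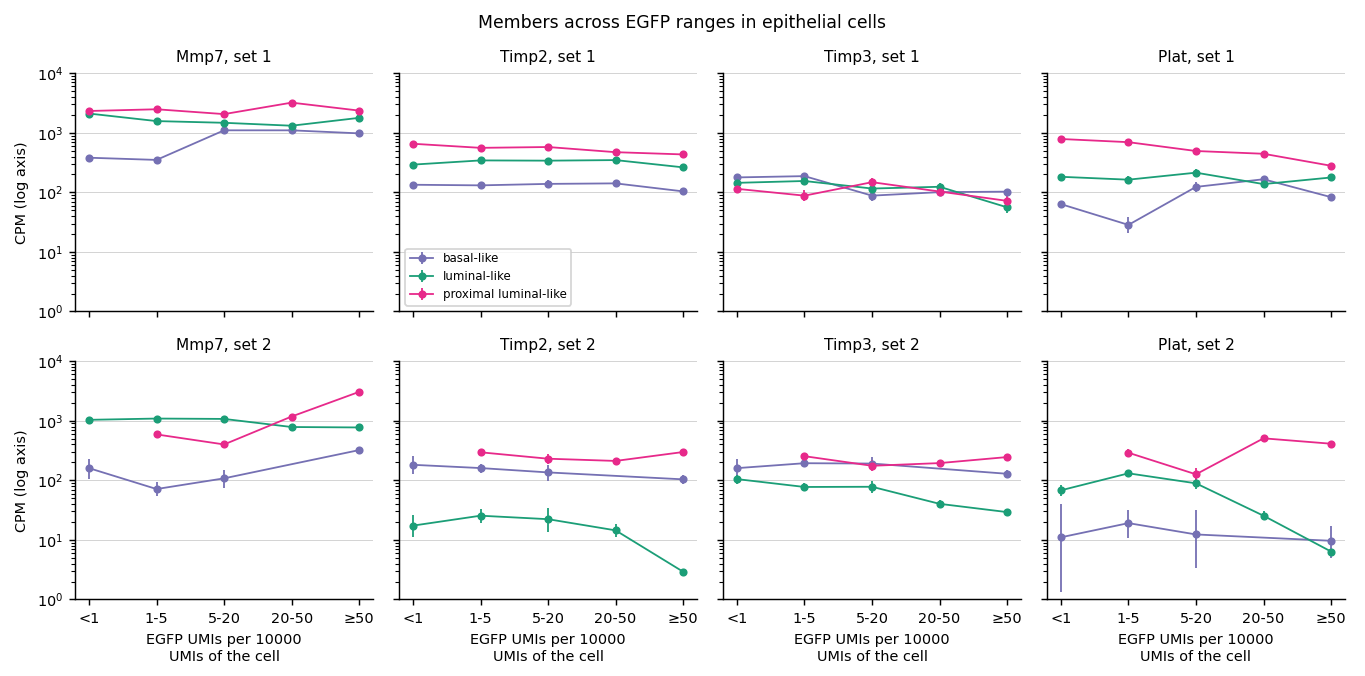
Level in CPM (y axis, log scale) of Mmp7, Timp2, Timp3 and Plat by range of EGFP UMIs per 10000 UMIs of the cell (x axis) in basal-like, luminal-like and proximal luminal-like cells, set 1 above and set 2 below, with 95% Poisson intervals as bars and lines joining the ranges that held enough cells. Mmp7 of basal-like cells in set 1 steps from 351 CPM in the range from 1 to 5 to 1101 CPM in the range from 5 to 20 and stays near that level.

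In luminal-like cells Mmp7 was not called in either set. In set 1 it was 1527 CPM in 99 EGFP-high and 2082 CPM in 858 EGFP-low cells (log2 ratio -0.45, turning to 0.53 when clustered without integration), and 0 of 5 members tested were called in either direction, where 3.58% of features were called higher and 1.66% lower. In set 2 Mmp7 was 773 CPM in 5617 EGFP-high and 1069 CPM in 156 EGFP-low cells (-0.47). Here Plat (7.16 against 107 CPM, log2 ratio -3.90), Timp2 (3.40 against 22.4 CPM, -2.72) and Timp3 (29.7 against 87.8 CPM, -1.56) were lower in EGFP-high cells, 3 of 4 members tested, where 16.7% of all features were lower and 12.9% higher. Plat and Timp2 reached 20 CPM in EGFP-low cells only. However, 149 of those 156 EGFP-low cells belonged to cluster 5, and within cluster 5 (76 EGFP-high and 149 EGFP-low cells) the log2 ratios were 0.02 for Plat, -0.13 for Timp2, 0.19 for Timp3 and -0.11 for Mmp7, with 0 of 4 called, where 1.99% of features were higher and 0.0737% lower. The ratios of the whole class were thus not seen within the cluster that held most of the EGFP-low cells.

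In proximal luminal-like cells a different member was called in each set. In set 2 Mmp7 was 2189 CPM in 121 EGFP-high and 563 CPM in 62 EGFP-low cells (log2 ratio 1.96, interval 1.84 to 2.08) and Timp1 37.2 against 11.6 CPM (1.69, interval 0.84 to 2.65), 2 of 5 members tested, where 5.1% of features were higher and 2.92% lower. In set 1 Mmp7 was 2791 CPM in 83 and 2334 CPM in 483 cells (0.26), and Plat was lower, 364 against 781 CPM (-1.10), 1 of 6 members tested, where 2.6% of features were lower and 2.2% higher. EGFP-high cells of set 2 were 88 in cluster 10 and 33 in cluster 11, and EGFP-low cells 21 and 41, each under 50 on one side, so no ratio within a cluster was available there. Mmp7 was 2516 CPM in cluster 10 and 183 CPM in cluster 11 of set 2, and the part of this uneven mix in the Mmp7 ratio was not tested. In that comparison hARtg was 622 CPM in EGFP-high and 715 CPM in EGFP-low cells. In cluster 10 of set 1 alone, Mmp7 had a log2 ratio of -0.39, Plat -1.45 and Plau -2.11, the latter pair being 2 of 7 called lower, where 2.81% of features were lower and 2.5% higher. In cluster 9 of set 1, a luminal-like cluster, Timp1 was the 1 of 5 called lower (-1.11), where 1.71% of features were lower and 3.07% higher. The Plat ratio of set 1 was -0.27 when cells were clustered without integration of the sets, and the Mmp7 ratio then was -0.87. In the Krt6a-Clu cluster of set 1, 50 EGFP-high cells against 1193 gave a log2 ratio of 0.26 for Mmp7, and 0 of 5 members were called, where 1.26% of features were higher and 0.342% lower.

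**Figure D4:**
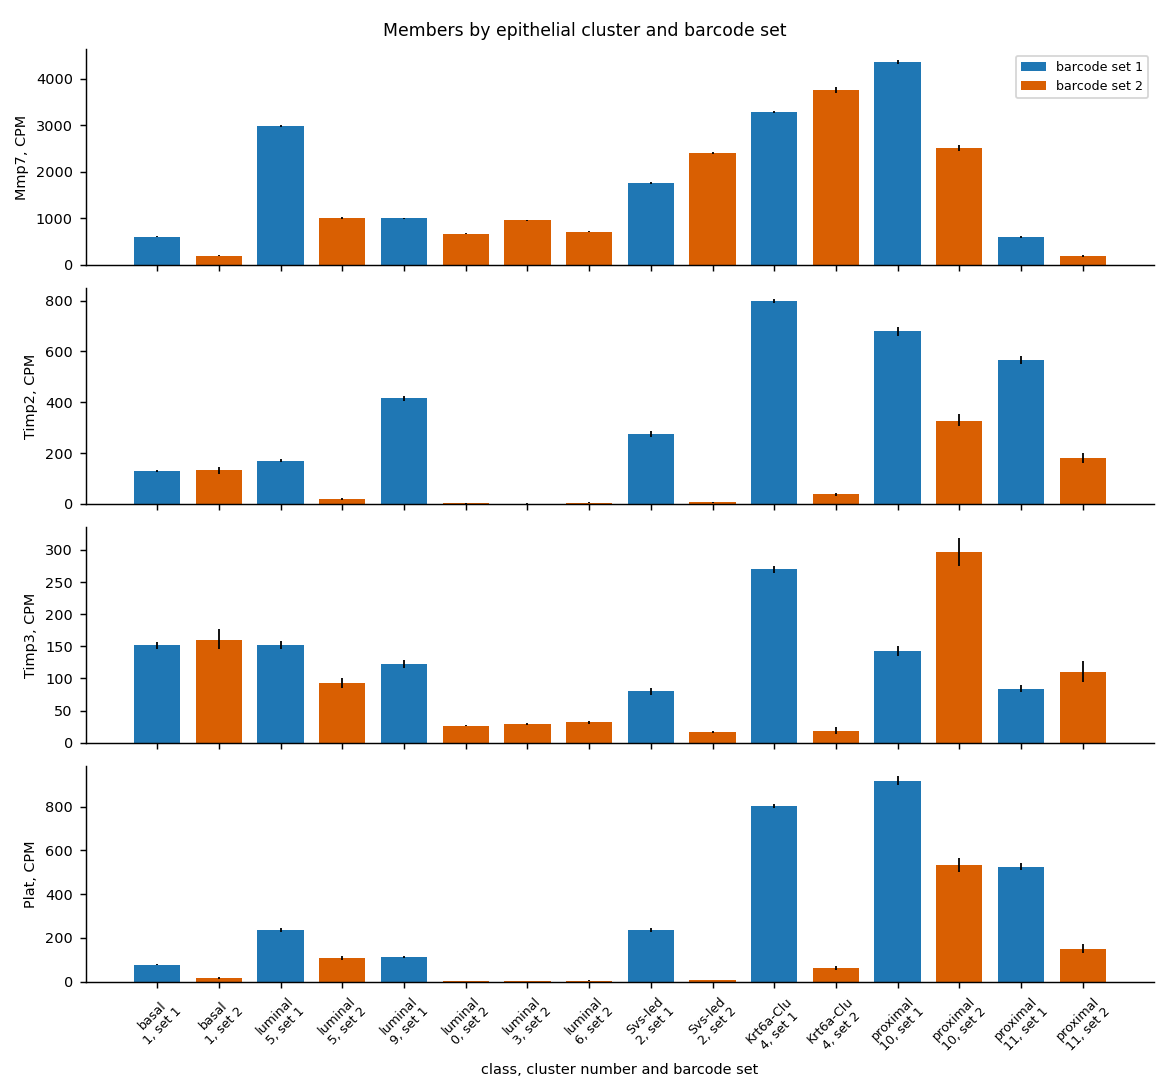
Level of Mmp7, Timp2, Timp3 and Plat (bars, in CPM, each axis from 0) in each epithelial cluster and set of at least 50 cells (x axis), with 95% Poisson intervals. Timp2 and Plat are under 6 CPM in clusters 0, 3 and 6 of set 2, where Mmp7 stays between 670 and 964 CPM.

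Between the barcode sets, the widest gap of any member was that of Timp2 in luminal-like cells. Timp2 was 298 CPM in set 1 and 4.07 CPM in set 2, a log2 ratio of set 2 over set 1 of -6.19 (-6.33 to -6.06) or 73.2-fold, and the thinned share of luminal-like cells with a UMI was 47.0% in set 1 and 0.728% in set 2. Plat was 180 against 10.6 CPM (-4.09), Timp1 65.6 against 4.47 CPM (-3.88), Timp3 138 against 31.7 CPM (-2.12) and Mmp7 1998 against 783 CPM (-1.35). Thus 5 of 5 members tested were lower in set 2, where 17.1% of features were lower and 10.1% higher. Timp2, Plat and Timp1 reached 20 CPM in set 1 only, so the direction of their calls was fixed by their entry. The median log2 ratio was -3.88 over the 5 members and -0.18 over all features tested, and the same entry bears on the median of the members.

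**Figure D5:**
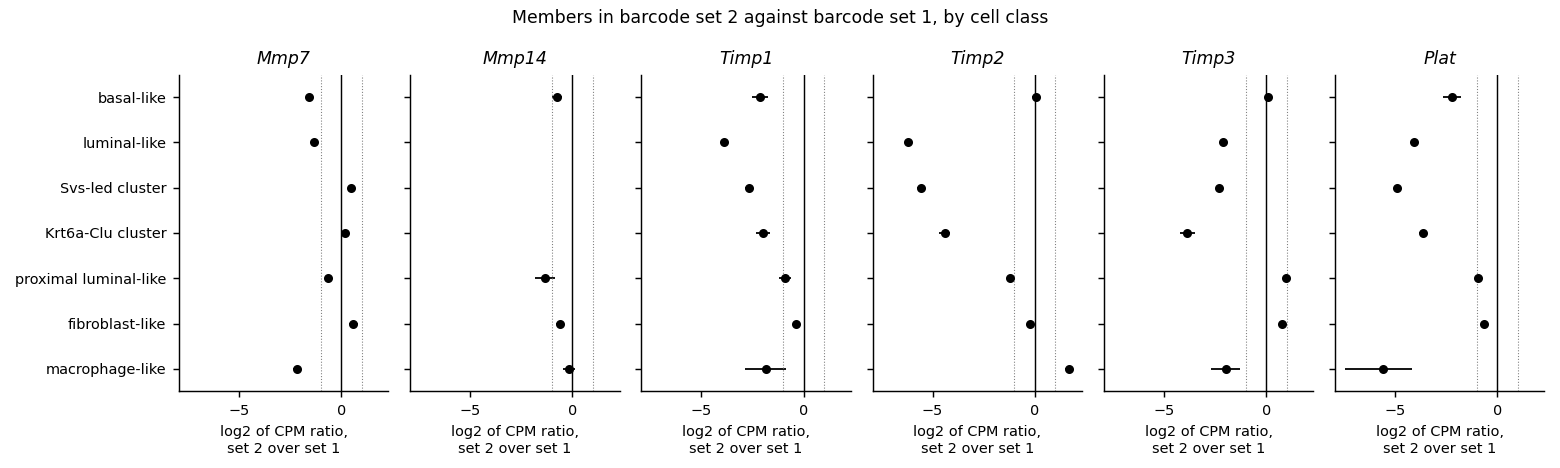
Log2 ratio of CPM in set 2 over set 1 (x axis) for 6 of the members by cell class (y axis), with 95% binomial intervals and dotted lines at 2-fold. Timp2 and Plat lie far to the left in luminal-like cells, the Svs-led cluster and the Krt6a-Clu cluster, and every point of fibroblast-like cells lies within 2-fold.

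In the Svs-led and the Krt6a-Clu clusters Timp1, Timp2, Timp3 and Plat were lower in set 2 and Mmp7 was not called, but the cells compared were unlike. The Svs-led cells of set 1 lacked the seminal vesicle genes of those of set 2, and their basal markers summed to 823 CPM against 24.3 CPM. In the Krt6a-Clu cluster the seminal vesicle markers summed to 0.32 CPM in set 1 and 680 CPM in set 2 and the basal markers to 1488 and 112 CPM. The part of these differences in the ratios was not tested. In the Svs-led cluster Timp2 was 275 against 5.83 CPM (-5.56), Plat 238 against 8.02 CPM (-4.89), Timp1 55.9 against 8.89 CPM (-2.65) and Timp3 79.8 against 16.3 CPM (-2.29), 4 of 5 members tested, where 13.2% of features were lower and 9.34% higher. All 4 reached 20 CPM in set 1 only, which fixed the direction of their calls. Mmp7 had a log2 ratio of 0.45 in that cluster. In the Krt6a-Clu cluster Timp2 (-4.41), Timp3 (-3.85), Plat (-3.65) and Timp1 (-1.98) were lower, 4 of 5, where 11.5% of features were lower and 9.24% higher, and Mmp7 had a ratio of 0.19. Clustered without integration of the sets, that cluster had ratios of 0.39 for Timp3, -0.37 for Plat and -0.80 for Timp1, and of these 4 Timp2, at -1.20, was still past 2-fold. The Svs-led cluster then held 0 cells of set 1, so its comparison could not be made. The integrated clusters held 268 and 1786 cells (Svs-led) and 1272 and 159 cells (Krt6a-Clu) of sets 1 and 2.

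In basal-like and fibroblast-like cells Timp2 was not called between sets. In basal-like cells it was 129 CPM in set 1 and 132 CPM in set 2 (0.04) and Timp3 151 and 160 CPM (0.08), while Plat (-2.22), Timp1 (-2.11) and Mmp7 (-1.59) were lower in set 2, 3 of 6 members tested, where 5.21% of features were lower and 3.1% higher. With called doublets kept, the Mmp7 ratio was -0.99. The basal-like cells of the sets were also unlike. Their basal markers summed to 14135 CPM in set 1 and 9992 CPM in set 2, and their proximal luminal markers to 6071 and 1961 CPM. The part of these differences in the ratios was not tested. In proximal luminal-like cells Mmp14 (-1.33) and Timp2 (-1.23) were lower, 2 of 6, where 5.34% of features were lower and 3.81% higher, and Timp3 was 112 against 216 CPM (0.96). Without integration the ratio of Timp2 was -0.81 and that of Timp3 -0.08, and in cluster 10 alone Mmp14 had -0.96. In fibroblast-like cells 0 of 8 members were called, where 6.4% of features were higher and 6.67% lower, and the largest ratios were 0.90 for Mmp3, 0.76 for Timp3 and -0.64 for Plat. In macrophage-like cells Timp2 was higher in set 2, 197 against 616 CPM (1.64), the 1 of 7 members tested, where 8.7% of features were higher. Plat (-5.57), Mmp7 (-2.16), Timp3 (-1.97) and Timp1 (-1.83) were lower, where 13.7% of features were lower. Those macrophage-like cells of set 1 had macrophage markers summing to 3429 CPM, against 16988 CPM in set 2, beside the luminal markers given above, and the part of these epithelial transcripts in the 5 ratios was not tested. Their dendritic markers summed to 1596 CPM in set 1, with 5 of 7 at 10 CPM or more, and to 292 CPM in set 2, with 4 of 7, and the part of such cells in the Timp2 ratio was likewise not tested.

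The sets also differed in reporter level, since summed luminal-like cells had an EGFP level of 625 CPM in set 1 but 9551 CPM in set 2. Among EGFP-high luminal-like cells alone the log2 ratio was -6.51 for Timp2, -4.44 for Plat, -3.43 for Timp1, -1.65 for Timp3 and -0.98 for Mmp7, with 4 of 5 called lower, where 17.1% of features were lower and 11.3% higher. Among EGFP-low cells alone it was -3.72 for Timp2, -2.04 for Timp1, -0.96 for Mmp7, -0.76 for Plat and -0.72 for Timp3, so that 2 of 5 members were called lower, where 8.27% of features were lower and 3.18% higher. In cluster 5, the luminal-like cluster with at least 50 cells in both sets, Timp2 was 170 against 20.1 CPM (-3.08), Timp1 had a ratio of -2.15, Mmp7 -1.57, Plat -1.12 and Timp3 -0.72, with 4 of 5 lower, where 7.37% of features were lower and 2.78% higher. The lower Timp2 and Timp1 of set 2 were thus present within 1 cluster and at either reporter level, and their size depended on which cells were compared. The EGFP-low and cluster 5 comparisons overlapped, since cluster 5 held 514 of 858 EGFP-low cells of set 1 and 149 of 156 of set 2. Of the EGFP-high cells of set 1, 72 of 99 were in cluster 9. Those of set 2 were mostly in clusters 0 and 3 (3146 and 1611 of 5617), so that comparison set different clusters against each other.

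The other epithelial classes were compared between sets at matched reporter levels in the same way. Basal-like cells had Mmp7, Timp1 and Plat lower in set 2 at either level. The log2 ratios were -1.75, -2.34 and -2.67 among EGFP-high cells, 3 of 6 members, where 5.36% of features were lower and 4.27% higher, and -2.10, -1.74 and -1.76 among EGFP-low cells, again 3 of 6, where 6.59% were lower and 3.44% higher. In the EGFP-high cells of the Svs-led cluster, where the sets differed in seminal vesicle markers as above, Timp2 (-5.50), Plat (-5.10), Timp1 (-2.61) and Timp3 (-2.15) were lower, 4 of 5, where 13.1% of features were lower and 9.51% higher. In those of the Krt6a-Clu cluster the same 4 of 5 were lower, with a ratio of -4.14 for Timp2, where 12.2% of features were lower and 8.7% higher, and Mmp7 was 3864 CPM in set 1 and 3922 CPM in set 2. EGFP-high proximal luminal-like cells had Timp3 higher (1.34) and Mmp14 lower (-1.16) among 6 members, where 5.86% of features were higher and 5.81% lower. EGFP-low proximal luminal-like cells had 5 of 6 lower, where 7.86% of features were lower and 4.58% higher. In proximal cluster 10 Timp3 was higher (1.06) and Timp2 (-1.05) and Plau (-1.47) lower among 7 members, where 4.49% of features were higher and 4.04% lower, and in cluster 11 Mmp7, Mmp14, Timp1, Timp2 and Plat were lower, 5 of 6, where 16.4% of features were lower and 5.64% higher.

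Cluster by cluster, the luminal-like clusters of set 2 with at least 50 cells had Mmp7 at 670 CPM or more. Outside cluster 5, these clusters had Timp2 and Plat below 6 CPM. Cluster 9 of set 2, also luminal-like, held 38 cells and was left out, so its levels are not covered here. Timp2 was 1.66, 1.46 and 4.65 CPM in clusters 0, 3 and 6 of set 2, Plat 4.76, 3.40 and 5.50 CPM, and Mmp7 670, 964 and 716 CPM. Cluster 6 was led by cell cycle genes. In set 1, cluster 9, led by Wfdc3 and Msmb, had 415 CPM of Timp2. Cluster 10 of set 1, the Msln-led proximal cluster, had 4371 CPM of Mmp7 and 918 CPM of Plat. Both were the highest values of any cluster of at least 50 cells. For Plat the interval overlapped that of the smooth muscle-like cluster of set 2 (865 CPM).

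Of 37 further MMP, inhibitor and plasminogen system genes, 34 were in the table. Those with high levels in any class included Anxa2, a surface receptor for plasminogen and Plat (3268 CPM, basal-like cells of set 1), Bsg, an inducer of MMPs (2160 CPM, Svs-led cluster of set 1), Plaur, the urokinase receptor (2108 CPM, basal-like cells of set 2), S100a10, the partner of Anxa2 (1787 CPM), Serpine2, an inhibitor of plasminogen activators and thrombin (1545 CPM, Svs-led cluster of set 1), Mmp12, the macrophage elastase (415 CPM, macrophage-like cells of set 2) and Lrp1, a clearance receptor (264 CPM, fibroblast-like cells of set 1). Reck, a membrane-anchored MMP inhibitor, was at 37.2 and 42.7 CPM in fibroblast-like cells.

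In basal-like cells with high EGFP, Serpine2 was the 1 of 7 further genes tested that was higher in set 1, with a log2 ratio of 1.88, where 2.35% of features were higher and 2.49% lower, and 0 of 7 were called in set 2, where 2.53% were higher and 1.3% lower. Serpine2 was also higher in EGFP-high proximal luminal-like cells, by 1.88 in set 1 and 2.69 in set 2. Between sets, 5 of 11 further genes tested were lower in luminal-like cells of set 2 and 0 higher, where 17.1% of features were lower and 10.1% higher. Timp4 (-5.19) and Plaur (-2.84) were among the 5, and Timp4 was also lower in the Svs-led cluster (-6.09). In proximal luminal-like cells Timp4 went the other way. It was the 1 of 10 further genes called higher in set 2 there, where 3.81% of features were higher and 5.34% lower. In macrophage-like cells 4 of 15 were higher in set 2 and 4 lower, where 8.7% of features were higher and 13.7% lower. The higher genes included Mmp9 (gelatinase B, 3.43 CPM in set 1 against 25.5 CPM in set 2, log2 ratio 2.89), Mmp12 and Lrp1, and the lower ones were Mmp13, Mmp25 (-2.76), Anxa2 and St14. The lists' medians were -0.63 for the further genes and -0.18 for all features in luminal-like cells, and 0.21 and -0.18 in macrophage-like cells.

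Over the 17 sums of class and set, the genes whose log2(CPM + 10) ran closest to a member were Epn3, Rasef and Cldn3 for Mmp7 (Pearson r 0.95, 0.94 and 0.93), Serpinf1, C1s1 and Nr2f1 for Mmp2, Sod3, Ddr2 and Col12a1 for Mmp3, Samd4, Osmr and Cdc42bpa for Timp3, and Il1a, Il1rn and Adam8 for Plau. Pmp22, Rab12 and Sh3pxd2b ran closest to Mmp14, Pam, Sdc2 and Nbl1 to Timp1, and Gpx8, Mfge8 and Piezo2 to Plat (0.85, 0.84 and 0.84). The values for Timp2 were 0.88 with Hk2, 0.82 with Gstm5 and 0.79 with Pid1. Among the members, Mmp2 and Mmp3 had an r of 0.97, with the smooth muscle-like Mmp3 sum from 1 cell, Timp1 and Plat 0.80, and Mmp7 and Mmp14 -0.61. These sums share 2 libraries and are a description of levels only.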

How the data were processed

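Per the labels and the study's methods, prostate tissue was dissociated with collagenase and TrypLE, libraries were made with the 10x 3′ v2 kit and aligned with Cell Ranger 3.1.0 to mm10 carrying mGFP and hARtg. The authors deposited 1 table of natural log values, ln(1 + 10000 × UMIs / total). From it, 100% of values above 0 were turned back into whole UMIs (relative tolerance 0.001). Set 1 has as many cells as the study kept for PIN, but barcode endings were not assigned to tissues because the labels do not map them. Scrublet (scanpy 1.11.5) called 150 cells of set 1 and 183 of set 2 doublets at a score limit of 0.25, chosen after the scores were seen because the automatic limits called 0. Cells were integrated and clustered in Seurat 5.3.0 (R 4.3.3; 2000 features, 30 components, 20 dimensions, resolution 0.5) with the members, the further genes, EGFP and hARtg left out of the features. Clusters took class names from fixed markers. After clusters were seen, immune clusters with mixed subtype markers were pooled as leukocyte-like, and the Krt6a-Clu and Svs-led clusters were named by their genes. Free RNA was not removed, and 24 symbols in the table are dates.

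Levels are summed UMIs scaled to CPM with exact Poisson intervals, shares of cells were taken after thinning to 3000 UMIs, and ratios carry exact conditional binomial intervals with a floor of 3 UMIs. With 1 library per tissue no p-value was computed. Ratios were tested on simulated Poisson sums, which share the assumption of the intervals. That test could not show how the intervals hold for genes that are uneven from cell to cell. All 9 members were named, as were the further genes by highest level, by largest called ratio or as fixed counterparts, and those of a called count of 5 or fewer in macrophage-like cells after their values were seen. Some results on single further genes and markers are not reported here. The members and lists were chosen with earlier results of these data known. Alternatives were doublets kept, resolution 1.0, no integration, equal weight per cell, removal of features over 1% of UMIs, other EGFP limits and thinning. Comparisons at 1 EGFP level or within 1 cluster were chosen after seeing the data. Symbols were matched to RefSeq (GRCm38.p6) for coordinates and promoters.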

Additional observations from a re-analysis of the deposited data

Results flagged for a closer look

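Timp1 and Plat had reporter ratios of opposite sign in proximal luminal-like cells of the barcode sets. The log2 ratio of EGFP-high over EGFP-low cells was -0.75 in set 1 and 1.69 in set 2 for Timp1, and -1.10 in set 1 and 0.64 in set 2 for Plat. Each drew attention because the ratio lay on one side of 0 in the one library and on the other side in the other. With 1 library per set, the difference between the sets was not tested. The opposite signs also depended on the processing. Plat in set 2 turned to -2.06 at cluster resolution 1.0, and Timp1 in set 1 turned to 0.15 without integration of the sets and to 0.37 with 0 against 1 or more EGFP UMIs. The EGFP-high and EGFP-low cells of set 2 fell unevenly over clusters 10 and 11, in which Plat was 533 and 151 CPM, and the part of that mix was not tested.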

How the results depend on the processing

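No paired analysis was possible because each tissue has 1 library. Over 148 results, 770 values were recomputed: 482 kept their direction and stayed within the interval of counting error or, for counts, within 1.5 times, 261 moved and 27 reversed. The cause was not tested for any of them. The higher Mmp7 of EGFP-high basal-like cells kept its direction in both sets under every alternative run. For set 1 its log2 ratio was 1.08 for 1 or more against 0 EGFP UMIs, 1.36 for 50 or more against under 2 EGFP UMIs per 10000, 1.498 at resolution 1.0, 1.68 with equal weight per cell and 1.79 after thinning, and for set 2 it was 2.45 with doublets kept. Without integration 2 members were higher in set 1, and after thinning 2 were higher and 1 lower in set 2. In luminal-like cells of set 1 the Mmp7 ratio was -0.27 with doublets kept, -0.30 at resolution 1.0, -0.54 with equal weight, -0.55 after thinning and -0.56 in cluster 9 alone, where 1 member was lower, and it reversed to 0.53 without integration. In set 2 it was -0.41 with doublets kept, -0.20 at resolution 1.0, -0.066 without integration, -0.62 with equal weight, -0.56 without features over 1% of UMIs, -0.31 for the wider EGFP limits, -0.63 after thinning and -0.11 in cluster 5 alone, where 0 members were lower.

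Between sets, the luminal-like ratio of Timp2 was -5.92 without integration, -6.51 in EGFP-high, -3.72 in EGFP-low and -3.08 in cluster 5 cells alone. That of Plat was -4.51 at resolution 1.0, -4.54 without integration, -4.20 with equal weight, -4.44 in EGFP-high, -0.76 in EGFP-low and -1.12 in cluster 5 cells alone. In EGFP-low cells alone 2 members were lower in luminal-like cells and the basal-like ratio of Timp2 was 0.30. Ratios that reversed by EGFP level in set 1 were, at resolution 1.0, Plat in luminal-like cells (0.059), and without integration Timp1 (0.048) and Plat (0.23) in luminal-like and Mmp7 (-0.87), Timp1 (0.15) and Timp3 (0.10) in proximal luminal-like cells. With 0 against 1 or more EGFP UMIs, Timp1 reversed in basal-like (-0.008) and proximal luminal-like cells (0.37), Timp3 in proximal luminal-like cells (0.015), and Mmp7 (-0.049), Timp1 (0.19), Timp3 (0.11) and Plat (0.10) in the Krt6a-Clu cluster. Timp1 in that cluster was also 0.25 after thinning, and Mmp7 was -0.39 in cluster 10 alone. In set 2, Plat reversed at resolution 1.0 in proximal luminal-like cells (-2.06), and Timp3 (0.19) and Plat (0.021) in cluster 5 alone. Reversed ratios between sets were Timp3 in proximal luminal-like cells at resolution 1.0 (-0.70) and without integration (-0.083), Mmp7 in proximal luminal-like cells (0.84) and Mmp7 (-0.64) and Timp3 (0.39) in the Krt6a-Clu cluster without integration, Mmp2 in fibroblast-like cells with equal weight (0.15), and Timp1 (0.11) and Plat (0.33) in EGFP-high proximal luminal-like cells.

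Depth limits low members: at 20 CPM or more on either side, and over whole classes, Plau was tested in macrophage-like and Mmp3 in fibroblast-like cells, and elsewhere their ratios rest on few UMIs.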
